A study of Mus musculus with 53 samples.

Results

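The profiles of 2 healthy mouse tissues, liver and thymus, were compared on the same kind of bead array to find the genes that mark each of them. The comparison used healthy livers 2 to 10 and healthy thymi 1 to 5, which are 14 of the 53 samples in the series. All 14 came from mice labelled wild type on a mixed B6-129Sv background, with no floxed allele, transgene or treatment in the label, and age and sex were not given. The other samples were liver tumors of Mad2f/f mice with p53f/f or p53f/+ alleles and Alb-Cre, which acts in hepatocytes, and T-ALL, a malignancy of thymocytes, of mice whose Cre was driven by Lck. Whole pieces of organ were dissected, frozen and homogenized, so every value is an average over all cell types of the piece, and fewer cells of a type cannot be told apart from less RNA per cell. Nothing in the labels says whether the samples of a tissue came from separate cages or dissections, so the p-values measure the spread between these arrays.

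The liver is built mainly of hepatocytes, which make the proteins of the blood plasma, turn ammonia into urea, store and release glucose, make bile acids and modify drugs and toxins with cytochrome P450 and conjugating enzymes. The thymus is the organ in which T cells form. Its thymocytes divide fast, cut and rejoin the T-cell receptor genes with the Rag recombinase, and are selected on peptides shown by thymic epithelial and dendritic cells on MHC molecules. Hepatocytes of an adult divide rarely.

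The livers were spread over 3 chips and the 5 thymi lay together on another chip, so tissue and chip cannot be told apart. Values are normalized levels on a log2 scale, and a probe was called detected on an array when its detection p, against the negative control probes of that array, was under 0.05. Healthy liver 1 was left out from the start, since its profile resembles the tumors: on a scale set over all 52 arrays with a signal, its level of Mup3 was 4.68, against 14.27 to 15.41 in the other 9 livers. Healthy liver 5 stood apart from the other livers. Its correlation with them over all genes tested was 0.822 to 0.846, whereas the other 8 livers correlated at 0.955 to 0.986 with each other and the thymi at 0.984 to 0.992. In liver 5, 475 genes lay over 2 log2 units above and 857 lay over 2 log2 units below the mean of the other 8 livers. It was kept, and results that turned on it are given with and without it. Correlations between a liver and a thymus were 0.526 to 0.591.

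The sex of the animals was not labelled, and the sex chromosome genes differed among the livers. Xist, the RNA that silences an X chromosome in females, was at 8.89 to 9.99 in livers 6 to 10, and at 4.43 to 4.61 in livers 2 to 5 and 4.42 to 4.65 in the 5 thymi, where the probe used did not detect it and another probe detected it on 1 thymus. The Y-linked Eif2s3y was at 4.54 to 5.03 in livers 6 to 10, and at 5.32 to 7.35 in livers 2 to 5 and 5.68 to 6.58 in the thymi, but its second probe was called toward liver (0.66), and 7 livers detected it by one or the other. The other Y-linked gene measured, Uty, was not split, at 5.10 to 6.24 in livers 6 to 10 and 4.93 to 5.86 in livers 2 to 5. Livers 6 to 10 thus differed from the thymi in Xist as well as in tissue, and values without them are given for some of the genes and lists whose calls changed. Each gene was read by its brightest probe, and detection and "at least" folds below are those of that probe. Of 267 described genes with several probes, 17 had probes called in opposite directions, and among those named below these are Hnrnpk, Il1rn, Kif23, Maml1 and Stab1.

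Mup3, a major urinary protein that the liver secretes, had levels of 14.93, 14.92, 15.19, 15.31, 14.78, 14.75, 14.65, 14.63 and 14.12 in livers 2 to 10, against 5.05, 4.57, 4.91, 4.83 and 4.80 in thymi 1 to 5, in none of which it was detected. Its level was 14.81 ± 0.35 (SD, n = 9) in liver and 4.83 ± 0.18 (n = 5) in thymus, and it was at least 736-fold higher in liver. Liver 1 stood out in this gene, so the level in the other 9 livers is given as a description. With liver 1 put back, Mup3 and Cyp2e1 were still called toward liver. Cyp2e1, a P450 that oxidizes ethanol and other small molecules, had levels of 13.90 to 15.10 in the livers (median 14.91), against 7.04, 7.71, 5.64, 6.69 and 6.50 in the thymi, where it was detected on every array. The difference was 8.08 ± 0.27 log2 units (SE), or 270-fold, with an adjusted p of 2.06e-13. Of the 8 hepatocyte markers that could be measured, Mup3, Cps1, Apob and Pck1 were not detected on any thymus. Alb and Tat had named probes, but none of these was detected on at least 5 arrays, so neither gene was tested. Measured genes, here and below, are those with a probe that passed this filter.

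Cd3e, a signaling chain of the T-cell receptor complex, ran the other way. Its level was 5.13 to 6.81 in the livers (median 5.43), against 14.03, 14.13, 14.27, 14.02 and 14.05 in the thymi, a difference of -8.28 ± 0.30 log2 units (adjusted p = 4.99e-13). The highest liver values were those of livers 5 and 10, at 6.81 and 6.78, and 4 of 9 livers detected it by this probe and 7 by either of its probes. Rag1, a subunit of the recombinase that assembles the receptor genes, was detected on no liver, where its level was 4.69 to 5.68. In the thymi it was 9.89, 9.90, 10.21, 10.04 and 10.07, at least 21.8-fold higher than in liver (adjusted p = 1.05e-13). Cd4, Rag2 and Dntt were likewise detected on all 5 thymi and no liver. The groups did not overlap for any of the 4 fixed markers Mup3, Cyp2e1, Cd3e and Rag1. Such separation was common, at 5410 (50.7%) of all genes tested. For Mup3 it holds only without the healthy liver left out from the start. On the scale set over all arrays with a signal, that liver was at 4.68, inside the 4.61 to 5.12 of the thymi. For Cyp2e1, Cd3e and Rag1 that liver lay outside the thymus range.

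**Figure D1:**
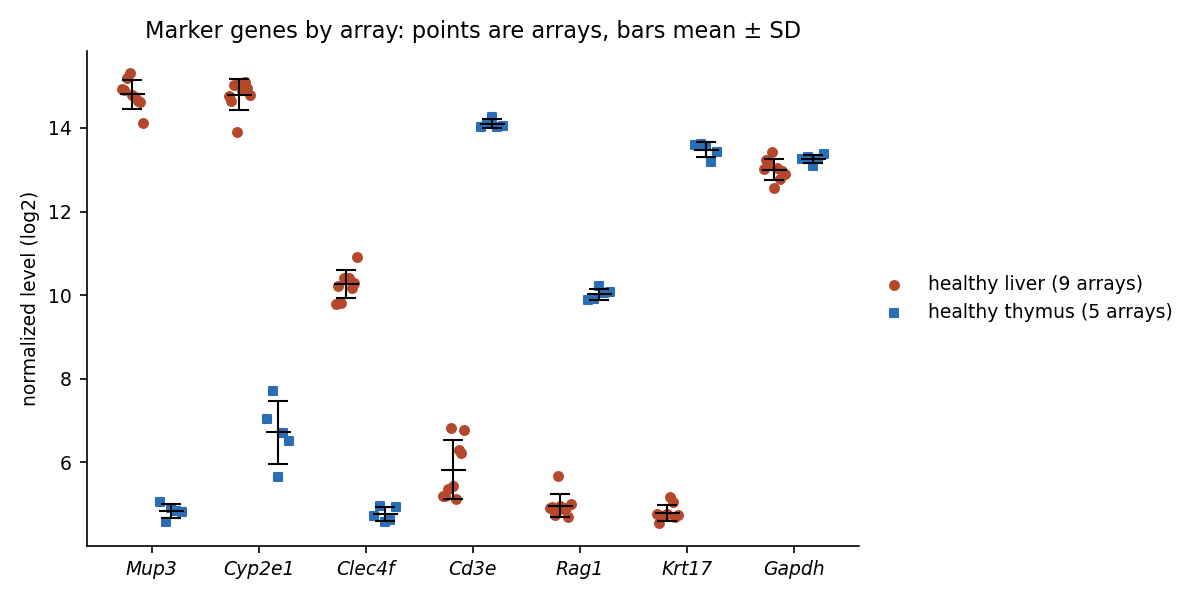
Normalized level (log2) of 7 genes on each array, with the 9 healthy livers as red circles and the 5 healthy thymi as blue squares, and mean ± SD as black bars. Mup3 and Cyp2e1 lie above 13 in every liver, Cd3e and Krt17 above 13 in every thymus, and Gapdh overlaps between the tissues.

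The promoters of these marker genes and of 4 further genes of the liver are shown so that the letters in front of tissue-marking genes can be compared. Each line gives the 150 bases before the gene's start in the RefSeq annotation of GRCm38.p6, read on the gene's own strand. Capitals mark matches, on either strand, to the core TATAAA of the TATA box, to GTTAATNAT for HNF1 and CAAAGTCCA for HNF4, which are transcription factors of hepatocytes, and to the E-box CAGCTG, which E proteins of lymphocytes bind.
Mup3 (chr4:62087318-62087467, minus strand): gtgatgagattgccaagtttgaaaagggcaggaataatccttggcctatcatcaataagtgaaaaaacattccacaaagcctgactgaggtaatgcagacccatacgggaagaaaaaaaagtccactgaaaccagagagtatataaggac
Cyp2e1 (chr7:140763669-140763818, plus strand): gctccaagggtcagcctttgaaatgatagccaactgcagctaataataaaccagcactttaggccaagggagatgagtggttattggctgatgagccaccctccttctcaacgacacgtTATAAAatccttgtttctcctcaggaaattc
Fga (chr3:83026003-83026152, plus strand): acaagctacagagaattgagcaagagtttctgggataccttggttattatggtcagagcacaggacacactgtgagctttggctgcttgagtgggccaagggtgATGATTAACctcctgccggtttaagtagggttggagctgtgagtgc
Slco1b2 (chr6:141629368-141629517, plus strand): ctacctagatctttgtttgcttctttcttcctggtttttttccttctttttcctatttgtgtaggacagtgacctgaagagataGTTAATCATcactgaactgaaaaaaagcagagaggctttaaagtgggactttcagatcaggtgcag
Cyp2c70 (chr19:40187287-40187436, minus strand): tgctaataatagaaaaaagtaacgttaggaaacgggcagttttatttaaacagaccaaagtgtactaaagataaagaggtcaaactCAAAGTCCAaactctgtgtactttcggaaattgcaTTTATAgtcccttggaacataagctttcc
Cyp8b1 (chr9:121916306-121916455, minus strand): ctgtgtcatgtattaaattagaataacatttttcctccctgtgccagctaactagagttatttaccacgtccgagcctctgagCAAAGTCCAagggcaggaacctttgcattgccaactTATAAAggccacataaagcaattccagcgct
Cd3e (chr9:45009612-45009761, minus strand): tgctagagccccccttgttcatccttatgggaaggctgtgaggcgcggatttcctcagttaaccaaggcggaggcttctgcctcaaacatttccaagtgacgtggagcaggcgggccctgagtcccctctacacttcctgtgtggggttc
Rag1 (chr2:101649533-101649682, minus strand): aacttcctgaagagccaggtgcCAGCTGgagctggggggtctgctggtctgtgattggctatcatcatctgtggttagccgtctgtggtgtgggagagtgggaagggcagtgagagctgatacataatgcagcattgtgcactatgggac

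Fga encodes a chain of fibrinogen, the clotting protein, and its HNF1 match began 46 bases before the start. Slco1b2 encodes an uptake carrier for bile acids and drugs, with its HNF1 match 66 bases before the start. Cyp2c70 and Cyp8b1 encode P450s that shape the bile acid pool, and their HNF4 matches began 64 and 67 bases before the start. The TATA match of Cyp2e1 began 31 bases and the E-box of Rag1 128 bases before the start. Mup3 and Cd3e held none of these letters in the window. The further liver genes shown were all ones with an HNF1 or HNF4 match, which few promoters held. Over the 250 bases before the start, the HNF1 letters were found in 4.03% of the 472 promoters of genes at least 16-fold higher in liver, in 0 of the 347 promoters of genes at least 16-fold higher in thymus, and in 0.496% of the 11086 promoters of all genes tested. For HNF4 the shares were 2.12%, 0% and 0.46%, and for the TATA box 15.7%, 8.36% and 7.62%. The E-box was in 14.0% of the first set, 16.7% of the second and 12.0% of all. The RUNX letters TGTGGTTT were in 1.06%, 1.73% and 1.04%, and the ETS letters ACCGGAAGT in 0.636%, 0.576% and 1.44%. These shares describe letters, and no binding was measured.

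Across the genome the tissues differed in most of the genes that could be measured. Of 10674 genes tested, 3235 (30.3%) were higher in liver and 4675 (43.8%) were higher in thymus at an adjusted p under 0.05, and 2764 were not called. Differences of at least 2-fold were called for 2204 genes toward liver and 3334 toward thymus. At least 16-fold differences were called for 484 genes (4.53%) toward liver and 331 genes (3.1%) toward thymus. Where a gene was detected in 1 tissue only its fitted difference is no measured size, and with such genes at their bound the counts were 463 and 283. The median difference over all genes was -0.26 log2 units. Scaling each array on its median in place of quantile normalization moved that median to -0.83, and the calls split into 2041 toward liver and 6227 toward thymus, so small differences are read below against the median of all genes. Without liver 5, 3579 genes were higher in liver and 5057 in thymus, and 7825 of the 7910 calls were made again in the same direction. With livers 2 to 5 only, 2836 were higher in liver and 4173 in thymus, and 6780 of the calls were made again.

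**Figure D2:**
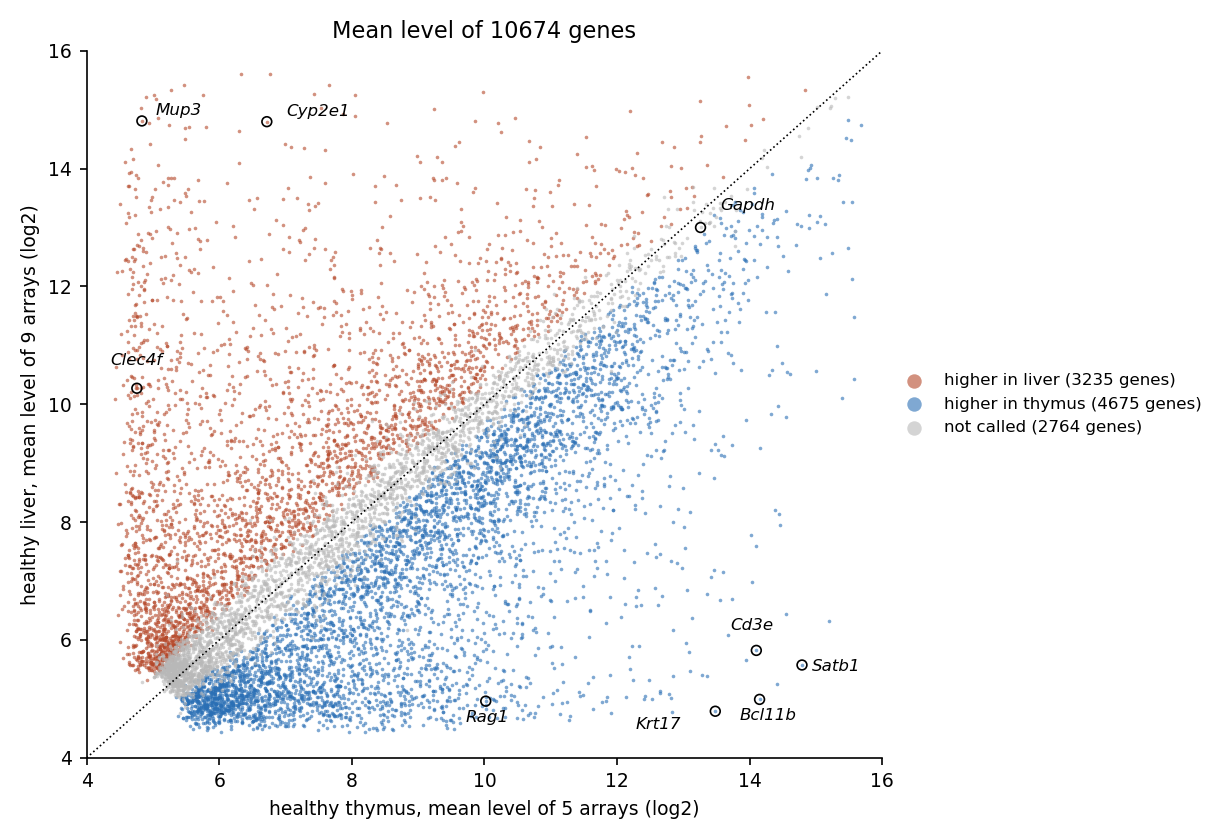
Mean normalized level (log2) of each of 10674 genes in 9 healthy livers (vertical axis) and 5 healthy thymi (horizontal axis), coloured by the call at an adjusted p under 0.05, with a dotted line at equal level. Mup3 and Cyp2e1 sit at the top left, and Satb1, Bcl11b, Cd3e and Krt17 at the bottom right.

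More genes were counted as detected in thymus only than in liver only, but the criteria were unlike. A liver gene had to be detected on 9 arrays and a thymus gene on 5. Such genes were kept for testing through that 1 tissue alone. A set of 242 genes was detected on all 9 livers and by no probe on any thymus, and 704 genes were detected on all 5 thymi and by no probe on any liver. The liver genes were the brighter of these, with a median bound of at least 18.2-fold, against at least 2.01-fold for the thymus genes. A further 5906 genes were detected on all 14 arrays, and 1476 of those were not called.

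The largest differences toward liver were secreted proteins. Serpina1d, a form of the protease inhibitor alpha-1-antitrypsin, was at 14.75 to 15.41 in the livers (median 15.26), against 4.72 to 5.11 in the thymi, at least 975-fold higher (adjusted p = 8.6e-19). Fga, detected on 1 thymus by the probe used, was 10.24 ± 0.12 log2 units higher, and Apoa2, a protein of high-density lipoprotein, 10.06 ± 0.12. Ahsg (fetuin-A) and the heme scavenger Hpx were detected on no thymus and were at least 859-fold and at least 958-fold higher. Serpina1b, Serpina1c, Azgp1, Plg, Apoc4 and Ambp, all secreted into plasma, were among the 15 largest too. Slco1b2, Ugt2b36, which attaches glucuronic acid, and Cyp2c70 were detected on no thymus and were at least 527-fold, at least 561-fold and at least 469-fold higher. Serpina1c was at 9.59 in liver 5 and near the top of the scale in the other livers. Serpina1 and Mup genes are near-identical copies, so a probe may read several of them, and many of these levels lay close to 15.69, the highest value on every array.

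The plasma proteins were higher in liver as a group. All 27 measured carrier and secreted proteins were called toward liver, 26 of them by at least 16-fold, with a median of 7.30. All 28 measured genes of coagulation and complement were called toward liver, with a median of 7.24 and a range of 2.42 to 10.24. Of these, 16 were detected in 1 tissue only and were kept through it alone. The 28 included Plg, the precursor of plasmin, at least 454-fold higher. Clotting factor F9 was at 13.16 to 14.31 in the livers, against 4.78 to 5.15 in the thymi (at least 301-fold). Of 16 measured acute phase genes, 14 were called toward liver, including Hpx, the iron hormone Hamp (7.35 ± 0.21) and Orm1 (7.08 ± 0.38). Saa3 (-1.29 ± 0.24) and Il1rn (-1.25 ± 0.23) were the 2 called toward thymus. All 6 measured major urinary proteins, which carry scent molecules, were called toward liver by at least 16-fold.

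Drug metabolism and bile acid genes followed the same pattern. All 25 measured drug-metabolizing P450s were called toward liver, with a median of 6.81, and Cyp2c37 was at 12.33 to 14.91 in the livers, against 4.66 to 4.93 in the thymi (at least 377-fold). Cyp3a11, the main steroid and drug oxidase of this list, was at 14.17 to 15.11 in 8 livers and 8.19 in liver 5, against 4.52 to 4.83 in the thymi. It was at least 404-fold higher with liver 5 included. All 23 measured conjugation enzymes were called toward liver (median 5.53), led by Ugt2b36, the aldehyde oxidase Aox3 (8.03 ± 0.25) and the esterase Ces3b (at least 171-fold). All 14 measured genes of bile acid synthesis and transport were called toward liver (median 5.89). Cyp7a1, the rate-limiting enzyme of that synthesis, varied from 9.86 to 13.83 among the livers and was detected on no thymus. Slc27a5, which activates bile acids, was at least 344-fold higher, and Cyp8b1 8.04 ± 0.26 log2 units higher.

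Nitrogen and sugar metabolism were also higher in liver. All 7 measured urea cycle genes were called toward liver (median 4.84). Cps1, which starts the cycle, was at 13.75 to 14.56 in 8 livers and 10.38 in liver 5, against 4.50 to 4.87 in the thymi, at least 388-fold higher. Arg1, which releases urea, differed by 8.49 ± 0.18, and Asl by 5.54 ± 0.57. Otc had the smallest difference of the list, at 5.02 to 6.79 in the livers, against 4.58 to 4.90 in the thymi. It was detected on 6 of 9 livers (at least 1.52-fold). Levels of different probes cannot be set against each other, so this does not rank Otc among the genes of the cycle. All 25 measured amino acid catabolism genes were called toward liver (median 4.51), led by Mat1a (9.16 ± 0.18) and Gnmt (8.92 ± 0.53), which make and use the methyl donor S-adenosylmethionine, and by the tyrosine enzyme Hpd (at least 279-fold). All 9 measured genes of gluconeogenesis and glycogen were called toward liver (median 3.97), with Fbp1 at 7.73 ± 0.34, G6pc at 6.61 ± 0.49 and the glucose carrier Slc2a2 at least 33.3-fold higher.

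Fat metabolism differed less. Of 18 measured genes of fatty acid oxidation and ketone synthesis, 17 were called toward liver, with a median of 2.23, and 2 differed by at least 16-fold. Those 2 were the thiolases Acaa1b, at 14.39 to 15.23 in the livers against 7.83 to 8.30 in the thymi, and Acaa2, at 8.34 to 13.57 against 6.61 to 7.94. Hadha, a subunit of the mitochondrial trifunctional enzyme, was the 1 called toward thymus (-0.94 ± 0.22). Of 15 measured genes of cholesterol and fat synthesis, 13 were called toward liver (median 2.56), or 10 with livers 2 to 5 only. Dgat2, which makes triglyceride, led with 4.21 ± 0.27, and Srebf2, the regulator of cholesterol genes, was called toward thymus (-2.45 ± 0.24). Cyp51, a cholesterol enzyme, was at 5.14 in liver 5 and 9.37 to 11.64 in the others, and its difference was 3.35 with liver 5 and 4.01 without it.

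The transcription factors that shape hepatocytes were called toward liver in 14 of 15 measured cases (median 4.03), and Esrra was not called (-0.08 ± 0.18). The bile acid receptor Nr1h4 was at 11.81 to 13.54 in the livers, against 4.55 to 4.81 in the thymi (at least 141-fold). The drug receptor Nr1i3 was at least 70.8-fold higher, and Foxa3 differed by 5.71 ± 0.33. Hnf4a, a regulator of most hepatocyte genes, was at 10.35 to 12.57 in the livers and 5.25 to 5.97 in the thymi. Clock genes, which keep daily time, were called toward liver in 10 of 12 cases (median 1.79), led by Per2 (3.21 ± 0.40), Nr1d1 (3.20 ± 0.31) and Dbp (2.98 ± 0.34). The hour at which the tissues were taken was not given, and Arntl (-0.40 ± 0.19) and Per1 (-0.89 ± 0.55) were not called, though Per1 was called toward thymus without liver 5 (-1.21). Arntl was called toward thymus with livers 2 to 5 only (-0.60).

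Toward thymus, the largest differences were nuclear factors and surface molecules of T cells. Satb1, a chromatin organizer of thymocytes, was at 4.75 to 7.58 in the livers (median 5.33), against 14.61 to 14.98 in the thymi, a difference of -9.21 ± 0.35 (adjusted p = 9.35e-13). Bcl11b, which commits cells to the T lineage, was at 4.58 to 7.16 (median 4.72), against 13.86 to 14.38, a difference of -9.16 ± 0.35. Cd3d differed by -9.16 ± 0.20, Thy1 by -8.88 ± 0.36, Cd6 by -7.98 ± 0.27, Cd3g by -7.86 ± 0.30 and Cd27 by -7.59 ± 0.26. Arpp21, named for a phosphoprotein of thymocytes and brain, and Rgcc, a regulator of the cell cycle, were detected on no liver and were at least 153-fold and at least 147-fold higher in thymus. Sash3, an adaptor protein of lymphocytes, differed by -7.81 ± 0.27, and the receptor segment Trbv13-2 by -8.10 ± 0.31. The remaining genes of the 15 largest were not thymocyte genes by role: Krt17, a keratin of epithelium, Ccl21a, a chemokine of the thymic medulla, and LOC100041504. Ccl21a has near-identical copies in the genome, and its level was 4.74 to 8.01 in the livers, against 13.84 to 14.07 in the thymi.

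Of 21 measured genes of the T-cell receptor complex and its proximal signaling, 20 were called toward thymus (median -4.67), 11 of them by at least 16-fold. The kinase Zap70 was at 9.13 to 10.52 in the livers, against 12.16 to 12.66 in the thymi. The adaptor Grap2 was not called by the probe used (-0.31 ± 0.24), but its other probe was called toward thymus (-2.39). With the mean of all kept probes of each gene, 21 of the 21 were called toward thymus. Cd8b1 also showed how a probe choice can hide a difference. The probe with the highest mean was at 10.66 in liver and 11.91 in thymus, a difference of -1.25, whereas its other 2 probes differed by -8.53 and -8.83. Of 24 measured T-lineage transcription factors, 20 were called toward thymus (median -2.56), led by Satb1, Bcl11b and Sox4 (-7.37 ± 0.38). Gata3, which directs CD4 cells, was at least 9.82-fold higher in thymus, and Id2, an inhibitor of E proteins, was called toward liver (1.55 ± 0.63), a call that was lost without liver 5 (1.23, adjusted p = 0.0595).

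Of 15 measured genes of receptor gene recombination and double-positive thymocytes, 10 were called toward thymus, with a median of -1.94, and Arpp21, Rag1 and Hmgb2 (-4.32 ± 0.28) differed most. Cd1d1, which presents lipids, was called toward liver (2.14 ± 0.61), but not with livers 2 to 5 only (1.17) or after median scaling (1.47), and the joining genes Lig4, Prkdc and Nhej1 were not called, though without liver 5 Nhej1 was called toward thymus (-0.61). Of 14 measured genes of thymocyte positioning and exit, 13 were called toward thymus. Coro1a, an actin regulator, was at 6.97 to 9.83 in the livers, against 14.27 to 14.49 in the thymi, and the integrin Itgb7 differed by -5.84 ± 0.25. Cd69, which marks selected thymocytes, was at least 43.4-fold higher in thymus by the probe used, while its other probe, close to background in both tissues, was detected on 4 livers and differed by 0.22. In the Notch pathway, which starts T-cell development, 7 of 11 measured genes were called toward thymus and 3 toward liver. Notch3 was at least 8.97-fold higher in thymus and Hey1 differed by -3.43 ± 0.22. The coactivator Maml1 was called toward liver (at least 14.8-fold), but its second probe was called toward thymus by -1.22.

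Genes of dividing cells were called toward thymus. Of 20 measured mitosis genes 19 were called toward thymus, with a median of -5.36, and 14 differed by at least 16-fold. Top2a was detected on no liver by any probe and was at least 67.0-fold higher in thymus. Cdca8 was at least 94.2-fold higher by the probe used, while its second probe was detected on 5 livers and differed by -2.40, and Pbk differed by -6.91 ± 0.18. Kif23 was the exception (3.68), and 2 of its other probes were called toward thymus by -5.16 and -5.53. All 11 measured spindle checkpoint genes were called toward thymus (median -3.72). Cdc20, the target of the checkpoint, was at 5.85 to 7.24 in the livers, against 12.40 to 12.74 in the thymi, Bub1b differed by -4.67 ± 0.18, and Sgo2a was at least 14.4-fold higher in thymus. Mad2l1, the checkpoint gene that the series deletes in its tumor models and that was intact here, was at 4.75 to 7.23 in the livers (median 6.52), against 9.82 to 10.24 in the thymi. Its difference was -3.55 ± 0.34 (adjusted p = 9.37e-08), and a second, dimmer probe gave -1.24. The lowest liver value was that of liver 5.

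Of 29 measured DNA replication genes 28 were called toward thymus, with a median of -2.67. Uhrf1, which copies DNA methylation, differed by -6.27 ± 0.20, the helicase subunit Mcm5 by -5.46 ± 0.19 and the nucleotide enzyme Rrm2 by -5.30 ± 0.16. DNA repair genes were called toward thymus in 11 of 14 cases (median -1.73). Rad54l and Fancd2 were detected on no liver and were at least 23.5-fold and at least 7.55-fold higher in thymus, and Msh6 differed by -3.50 ± 0.13. Of 15 measured apoptosis regulators 11 were called toward thymus (median -1.40). The inhibitor Birc5, also a mitosis gene, was at 5.86 to 7.30 in the livers, against 12.14 to 12.50 in the thymi, while Apaf1 (-3.39 ± 0.14) and Bcl2l11 (-2.98 ± 0.21) promote cell death. Casp9 was called toward liver (0.88 ± 0.18).

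In every list, a gene detected in 1 tissue only was kept through that tissue alone, so the filter largely fixed its direction. Such genes were 5 of the 6 major urinary proteins and 9 of the 15 hepatocyte transcription factors. They were also 8 of the 20 mitosis genes and 6 of the 21 genes of the T-cell receptor complex. List medians use fitted differences. With genes undetected in a tissue set at their bound, the mitosis median was -4.74, that of the T-cell receptor complex -3.77, of the Notch pathway -0.91, of the recombination list -1.58, of conjugation enzymes 5.13 and of major urinary proteins 7.40.

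RNA handling genes differed by less, and most of their calls were toward thymus. Splicing factors were called toward thymus in 16 of 20 measured cases (median -1.89), led by Hnrnpl (-2.46 ± 0.13), Sf3a3 (-2.36 ± 0.10) and Srsf1 (-2.34 ± 0.23). Ribosome biogenesis genes were called toward thymus in 13 of 18 cases (median -0.94), led by Gar1 (-2.59 ± 0.18) and Nop58 (-2.52 ± 0.27). With livers 2 to 5 only, 9 of the 18 were called toward thymus (median -0.70, against -0.24 for all genes). Without liver 5, 13 were called toward thymus and 3 toward liver. Of all genes tested, 43.8% were called toward thymus. Actin and leukocyte cytoskeleton genes were called toward thymus in 15 of 17 cases (median -2.68), with Arhgdib at -6.23 ± 0.28 and Was at -5.54 ± 0.29. MHC class II genes, which serve antigen presentation, were called toward thymus in 10 of 11 cases (median -3.35). H2-Oa was at least 28.3-fold higher in thymus, and H2-Ab1 was at 9.51 to 12.26 in the livers, against 14.48 to 14.80 in the thymi. H2-Eb1 differed by -4.20 ± 0.32. Liver 10 held the highest liver level of H2-Eb1, at 11.01, and of Cd74, the class II invariant chain, at 12.31.

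**Figure D3:**
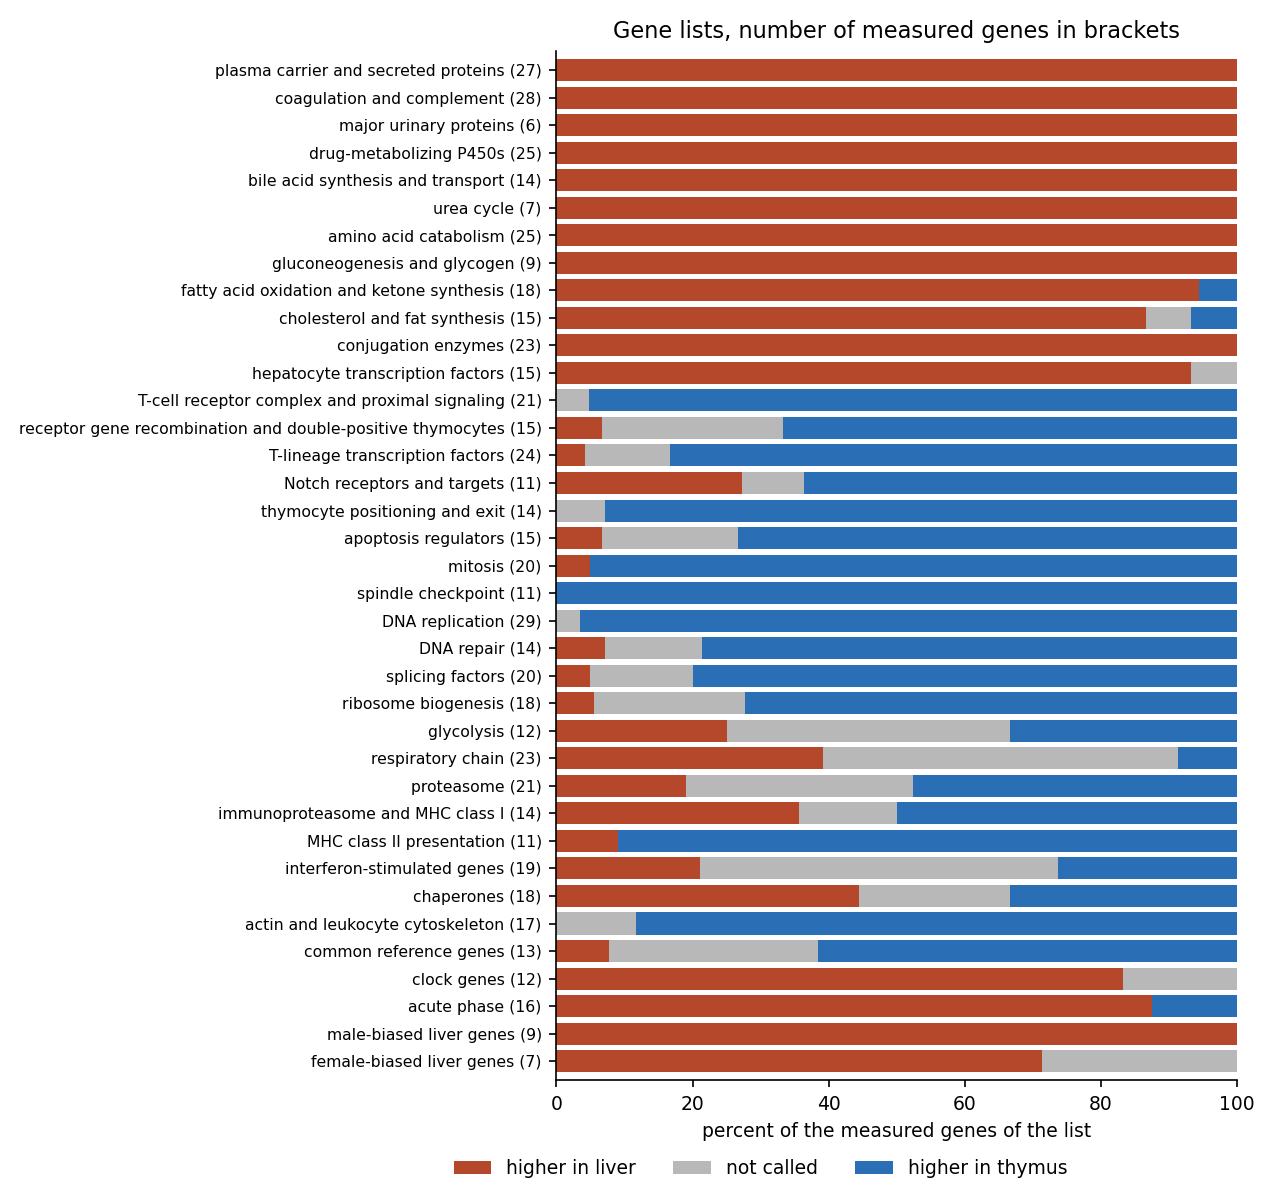
Share of the measured genes of each of 37 lists that were called higher in liver (red), not called (grey) or called higher in thymus (blue). The lists of hepatocyte functions are red nearly throughout, those of T cells and of dividing cells are mostly blue, and glycolysis, the respiratory chain, the proteasome, interferon-stimulated genes and chaperones are mixed.

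Basic cell functions were divided, and here the scaling mattered. Of 12 measured glycolysis genes 3 were called toward liver and 4 toward thymus (median 0.07), and without liver 5 the counts were 5 and 5. The aldolase Aldoc was at 6.86 to 8.71 in the livers, against 4.74 to 5.04 in the thymi, whereas its relative Aldoa was at 9.23 to 9.86, against 10.62 to 11.30. The phosphofructokinase Pfkp was called toward thymus (-2.78 ± 0.26). The respiratory chain was called toward liver in 9 and toward thymus in 2 of 23 measured cases, with a median of 0.27, led by Sdhb, Cyc1 and Cox6c, and without liver 5 the counts were 14 and 3. After median scaling 0 were called toward liver and 3 toward thymus, with a median of 0.00 against -0.83 for all genes. With livers 2 to 5 only the counts were 5 and 1. Proteasome genes were called toward thymus in 10 and toward liver in 4 of 21 cases (median -0.23), and after median scaling in 11 and 0, with Psmc4 at -1.10 ± 0.12. Without liver 5 they were 11 and 6. Interferon-stimulated genes were called toward liver in 4 and toward thymus in 5 of 19 cases (median -0.01), and after median scaling in 1 and 11. With livers 2 to 5 only they were called in 3 and 7 cases. Gbp2 and Oasl2 differed by -2.53 ± 0.55 and -2.61 ± 0.33. Chaperones were called toward liver in 8 and toward thymus in 6 of 18 cases, and after median scaling in 3 and 9. Those toward liver included Calr (3.46 ± 0.58), Pdia4 (2.49 ± 0.36) and other helpers of protein folding in the endoplasmic reticulum. Hspd1, Hspe1 and Dnaja1, which act outside it, were called toward liver too. Those toward thymus included Hspa1a (-1.60 ± 0.29) of the cytosol. Of the immunoproteasome and MHC class I genes, 7 of 14 were called toward thymus, led by the peptide transporter genes Tap2 (-2.88 ± 0.20) and Tap1 (-2.56 ± 0.17), and 5 toward liver, including B2m (0.55 ± 0.09). The shares of these genes and of the proteasome lie near those of all genes, 43.8% toward thymus and 30.3% toward liver.

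Several genes often used as references were not level between these tissues. Of 13 measured, 8 were called toward thymus and B2m toward liver. Of all genes tested, 43.8% were called toward thymus and 30.3% toward liver, so calls were common in general. Actb was at 12.83 to 13.39 in 8 livers and 15.26 in liver 5, against 15.44 to 15.62 in the thymi, and Tfrc, the transferrin receptor, differed by -2.50 ± 0.27. Gapdh was at 12.57 to 13.43 in the livers, against 13.10 to 13.37 in the thymi, and was not called (-0.26 ± 0.13, adjusted p = 0.0768), but was called toward thymus without liver 5 (-0.31, adjusted p = 0.00661). Hprt was not called with all livers or without liver 5 (-0.41 ± 0.19 with all). Without liver 5, 10 of the 13 were called toward thymus and 2 toward liver.

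Pairs of genes for the same reaction or transport step were compared to see whether each tissue favored its own form. Of 20 pairs listed, 8 had both members measured, and in 3 of these the liver form was called toward liver and the other form toward thymus. Pyruvate kinase was such a pair. Pklr was at 5.43 to 9.34 in the livers (median 8.60), against 4.41 to 4.58 in the thymi, and Pkm at 6.47 to 8.51, against 12.73 to 12.89. Pklr was at least 8.09-fold higher in liver, and Pkm differed by -5.46 ± 0.26. Glycogen phosphorylase was the second, with Pygl at 3.33 ± 0.20 and Pygb at -2.88 ± 0.24. The acetate-activating enzymes were the third, with the cytosolic Acss2 at 2.66 ± 0.38 and the mitochondrial Acss1 at -6.28 ± 0.18. In the glucose carriers, Slc2a2 was called toward liver and Slc2a1 was not called (-0.12 ± 0.17). The calcium pump Atp2a3 was at -7.05 ± 0.26 while Atp2a2 was not called (0.66 ± 0.41), and without thymus 4 Atp2a2 was called toward liver (1.12). Another Atp2a2 probe was called toward liver (2.09), by which this pair would be opposite too, and a further probe was not called (0.31). Aldh1a1 and Aldh1b1 were both called toward liver, by at least 27.8-fold and by 2.47 ± 0.38 log2 units. For lactate dehydrogenase, Ldhb was called toward thymus, at 5.31 to 6.06 in the livers and 6.45 to 7.20 in the thymi, and Ldha was not called (-0.30 ± 0.33). Idh1 was called toward liver (4.44 ± 0.56) and Idh2 was not called (0.42 ± 0.30, and -0.37 after median scaling).

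Markers of other cell types were counted because a piece of organ holds more than its main cells. Summed over the markers on the linear scale and given as log2, the hepatocyte list was at 17.01 to 17.31 in the livers, against 8.75 to 9.16 in the thymi. The thymocyte and T cell list was at 10.62 to 11.53 in the livers, against 15.75 to 15.85 in the thymi, of which Cd8b1 alone was at 10.21 to 11.33 in the livers. Thymic epithelial markers were called toward thymus in 11 of 12 cases, and 8 of them were detected on no liver by the probe used (Aire was detected on 2 livers by another). They included Krt17 (at least 240-fold), Krt14 (at least 124-fold), Krt5 (at least 15.1-fold) and Aire, the factor that lets the medulla make proteins of other tissues (at least 7.33-fold). Krt8, a keratin that hepatocytes also hold, differed by only -0.48 ± 0.11. Psmb11, the proteasome subunit of cortical epithelium, was at 4.54 to 5.36 in the livers, against 7.51, 7.13, 6.75, 6.52 and 6.69 in the thymi.

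Genes of the resident cells of the liver were measured next. Clec4f, a lectin of Kupffer cells, was at 9.79 to 10.92 in the livers, against 4.57 to 4.94 in the thymi, at least 31.7-fold higher. Vsig4, another gene of these macrophages, was at 8.29 to 11.57, against 4.71 to 5.16. Among general macrophage genes, Csf1r was called toward liver (0.80 ± 0.15), C1qa was called toward thymus (-1.49 ± 0.32), and Adgre1, Lyz2 and Mpeg1 were not called. Adgre1 was called toward thymus with livers 2 to 5 only (-0.68) and after median scaling (-0.62, against -0.83 for all genes). The whole list of 11 was called toward liver in 3 and toward thymus in 2 cases, and after median scaling in 2 and 6. Of 12 endothelial markers 6 were called toward liver. The sinusoidal genes Clec4g (6.67 ± 0.22), Oit3 (at least 6.42-fold, detected on 8 of 9 livers) and Stab2 (2.63 ± 0.16) were among them. Stab1, also known from sinusoids, was called toward thymus (-2.97 ± 0.28), with another probe called toward liver (1.80), and Pecam1 toward thymus (-2.59 ± 0.40). Cdh5, Emcn and Cldn5 were not called, though Cdh5 was called toward liver without liver 5 (0.55). After median scaling Emcn (-0.74) and Cldn5 (-1.32) were called toward thymus. Of 11 stellate cell and fibroblast markers 6 were called toward liver and 2, Col1a1 (-1.57 ± 0.22) and Pdgfrb (-0.72 ± 0.16), toward thymus (7 and 3 without liver 5), with Reln at 5.39 ± 0.22, Colec11 at least 6.95-fold and Lrat, which stores vitamin A, at least 5.77-fold higher. After median scaling the endothelial list was called toward liver in 6 and thymus in 4 cases, and the stellate list in 5 and 4.

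Dendritic cell markers were called toward thymus in 5 of 7 measured cases, led by Fscn1 (-5.53 ± 0.26) and including Siglech. The others called were H2-Ab1, Cd74 and H2-Aa, which are also in the MHC class II list. Clec9a and Zbtb46 were not called, and Itgax, Xcr1, Flt3, Ccl22 and Ccl17 were not measured. Neutrophil markers were called toward thymus in 7 of 8 cases, with Ltf at 5.01 to 5.79 in the livers and 9.49 to 10.49 in the thymi, and Camp and Mpo detected on no liver. The skeletal muscle list was at 7.05 to 8.52 in the livers and 9.18 to 9.78 in the thymi, and the adipocyte list at 6.66 to 11.32 and 8.13 to 11.04. Of 4 B cell markers 3 were called toward thymus and Ms4a1 toward liver (0.44 ± 0.19), which was lost without liver 5 (0.38, adjusted p = 0.0555). Cd79b of B cells differed by -4.28 ± 0.26 and Nkg7 of cytotoxic lymphocytes by -4.67 ± 0.21. The red cell list overlapped between the tissues (14.42 to 15.66 in the livers and 14.50 to 15.67 in the thymi), with hemoglobin Hba-a1 not called (-0.17 ± 0.27). Of the 6 markers 4 were called toward liver, Car1 by at least 6.74-fold, Alas2, which starts heme synthesis, by 2.27 ± 0.53, Tspan33 by 1.30 ± 0.29 and Klf1 by 0.99 ± 0.28. The part that any of these other cells had in the differences was not tested.

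**Figure D4:**
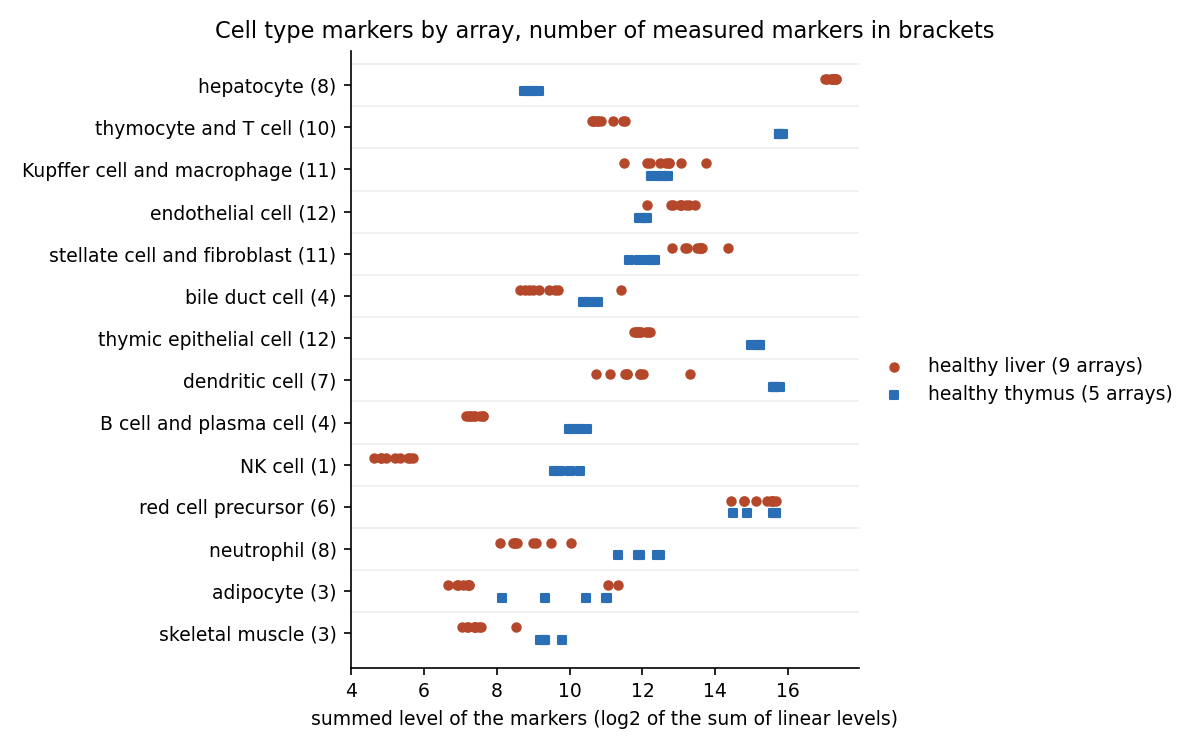
Summed level of 14 lists of cell type markers on each array, as log2 of the sum of linear levels, with healthy livers as red circles and healthy thymi as blue squares. Hepatocyte markers separate the tissues toward liver, thymocyte, thymic epithelial, dendritic, B cell and neutrophil markers separate them toward thymus, and macrophage and red cell markers overlap.

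Within the liver, several of the genes that varied most were split in the same way as Xist. Among the 6452 genes detected on all 9 livers the median SD was 0.43, or 0.257 without liver 5, and 340 genes had an SD over 1, or 84 without liver 5. Cyp4a12a, a P450 known to be higher in males, was at 14.86, 14.96, 14.95 and 14.59 in livers 2 to 5 and at 7.62, 9.90, 9.76, 10.02 and 9.25 in livers 6 to 10. Mup21 was at 14.53 to 15.11 in livers 2 to 5 and at 10.17 to 11.59 in livers 6 to 10. Obp2a, an odorant-binding protein, was at 10.18 to 12.12 and at 5.53 to 5.78 in the same order of livers, and Mup20, the male scent protein darcin, at 10.78 to 12.34 and at 9.22 to 9.65. Cyp2d9, another male-biased P450, was at 14.07 to 14.76 and at 9.59 to 12.10. None of these values overlapped between livers 2 to 5 and livers 6 to 10.

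The female-biased genes ran the other way. A1bg was at 4.79, 5.08, 4.81 and 4.88 in livers 2 to 5, where the probe used did not detect it, and at 14.96, 15.03, 13.91, 14.61 and 14.93 in livers 6 to 10. Cyp2b13 was at 4.63 to 8.26 in livers 2 to 5 and 13.00 to 14.08 in livers 6 to 10, and Cyp2b9 at 5.24 to 11.00 and 12.98 to 13.99. Cyp17a1, a steroid enzyme, was at 6.85 to 9.40 and 11.23 to 12.64. Of 7 female-biased genes measured 5 were called toward liver, and of 9 male-biased genes 9. A1bg was called with all livers (adjusted p = 0.0242) although 4 of 9 livers lay close to its thymus level of 4.57 to 4.83, so its call rests on livers 6 to 10. Obp2a was not called with all livers (1.57 ± 1.15) and was called with livers 2 to 5 alone (4.51). No test was made between the livers with and without Xist, since their sex is not labelled.

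Liver 5 stood apart in other genes with a wide spread. Serpina1e, of the male-biased list, was at 14.76 to 15.41 in livers 2 to 4, 8.41 to 12.83 in livers 6 to 10 and 5.78 in liver 5. Its SD was still 2.73 without liver 5, so liver 5 alone did not make that spread. Atp5pb, a subunit of ATP synthase, was at 11.95 to 12.51 in 8 livers and 5.91 in liver 5, against 8.79 to 9.97 in the thymi, and its difference was 2.05 ± 0.87 (adjusted p = 0.0438) with liver 5 and 2.75 without it. This call was lost when any other single array was left out. Actb, Hnf4a and Apob also set liver 5 apart, with 15.26 against a highest other liver of 13.39, 12.57 against 10.99, and 9.25 against a lowest other liver of 12.08. Saa1, an acute phase protein, ranged from 8.02 to 14.52 over the livers, and Hamp2 from 8.82 to 15.20. The lowest Hamp2 value was that of liver 3, and the SD of Hamp2 without liver 5 was 2.28.

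The thymi were more alike, with a median SD of 0.179 over 8958 genes detected on all 5, but 33 genes had an SD over 1. Several of them are known from heart, muscle and fat. Myl4, an atrial myosin light chain, was at 7.91, 11.99, 7.87, 12.93 and 7.98 in thymi 1 to 5, and the atrial hormone Nppa at 5.36, 10.31, 5.57, 7.85 and 5.87. Tcap and Tnnc1 of the sarcomere were at 8.25 and 9.20 in thymus 2 and at 9.24 and 9.74 in thymus 4, and at 5.50 to 5.76 and 6.04 to 6.35 in thymi 1, 3 and 5. Cox8b, a respiratory subunit of heart and brown fat, was at 9.61, 12.15, 6.47, 12.07 and 11.32, so that thymi 1 and 5 were high for it and not for Myl4. The lipid droplet gene Cidea and the lipogenic factor Thrsp were lowest in thymus 3, at 5.50 and 5.59. Thymi 2 and 4 were the highest for both, with Cidea at 10.33 in each and Thrsp at 9.88 and 10.00. Adipoq, a hormone of adipocytes, was at 8.05, 9.36, 7.28, 9.33 and 8.62 in the thymi and was detected on no liver. Cidea was also at 11.26 and 10.98 in livers 3 and 4, and at 4.59 to 4.89 in the other 7, and it was not called (-2.67, adjusted p = 0.0714) but was called without liver 3 (-3.32), liver 4 (-3.29) or thymus 3 (-3.47). Gpn2, which is none of these, was at 6.52 and 6.23 in thymi 2 and 5 and 9.76 to 10.63 in the others.

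**Figure D5:**
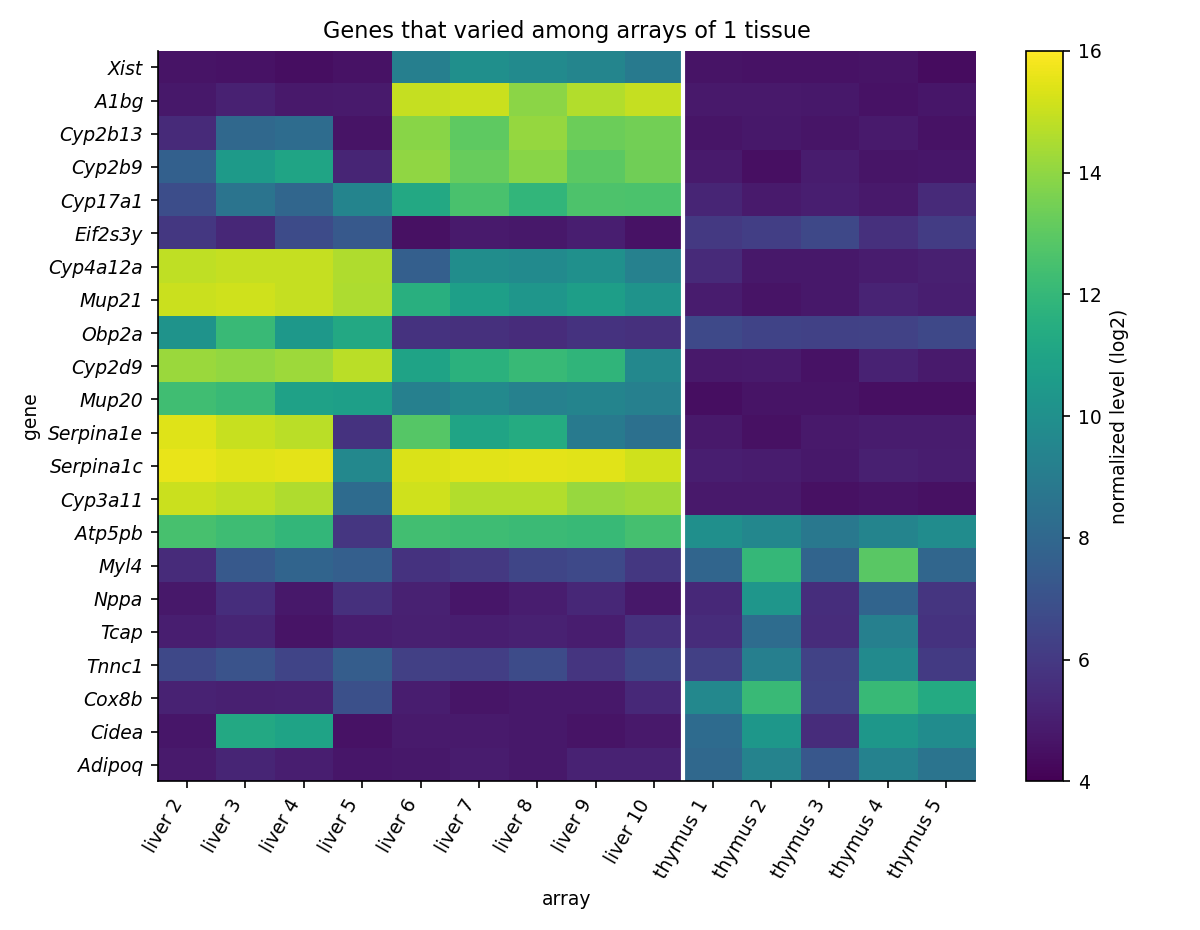
Normalized level (log2, colour) of 22 genes that varied among arrays of 1 tissue, on 9 healthy livers at the left and 5 healthy thymi at the right. Livers 6 to 10 are high for Xist, A1bg and Cyp2b13 and low for Cyp4a12a and Obp2a, liver 5 is low for Serpina1c, Cyp3a11 and Atp5pb, and thymi 2 and 4 are high for Myl4 and Tcap.

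The tissues also differed in how the signal was shared among genes. The livers detected 30.6% to 34.4% of all probes (mean 32.8% ± 1.33), against 37.2% to 40.3% in the thymi (38.3% ± 1.18), a difference of -5.46 percentage points without overlap (two-sided exact permutation test over 2002 splits, p = 0.000999, the smallest it can give). The 50 brightest genes held 15.6% to 19.6% of the summed signal in the livers (mean 16.8% ± 1.29) and 12.1% to 13.7% in the thymi (12.8% ± 0.658), a difference of 4.09 percentage points (exact permutation test, p = 0.000999). Healthy liver 1, left out of both tests, was at 38.9% and 12.8%, inside the thymus ranges. The 95th percentile of the deposited signal was 830 to 1430 on the 9 livers and 1880 to 2520 on the thymi. The part that this brightness or the chip had in the differences was not tested. In the deposited signals, 15 genes were among the 50 brightest on every liver, including Fga, Apoa1, Apoa2, Apoc1, Apoc3, Ambp, Kng1, Mup2, Serpina1b and Serpina1d. On every thymus 39 genes were, including Satb1, Thy1, Cd8b1, Actb, Tuba1b, the histones H2ac10 and H2ac20, and many ribosomal protein genes. Fth1 and Rps2 were in both sets.

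Across the 52 arrays normalized together, the markers spread widely in the tumors. Mup3 had a median of 6.86 in 20 p53f/f liver tumors (4.81 to 13.16) and 6.84 in 8 p53f/+ liver tumors (4.59 to 10.94), against 14.96 in the 9 healthy livers. Cyp2e1 had a median of 11.44 in the p53f/f tumors (6.82 to 14.41) and 12.34 in the p53f/+ tumors (5.32 to 14.99). These ranges overlapped the 14.02 to 15.23 of Cyp2e1 in the 9 healthy livers. Healthy liver 1, left out above, was at 4.68 for Mup3 and 10.25 for Cyp2e1. Cd3e had a median of 13.28 in 9 T-ALL samples (7.00 to 13.87), against 14.20 in the 5 healthy thymi. Rag1 had a median of 6.67 in the T-ALL samples (4.91 to 9.34), against 10.20 in the thymi, with no overlap.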

How the data were processed

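Total RNA of whole tissue was hybridised to Illumina MouseWG-6 bead arrays. The deposited intensity values are mean bead signals per probe, from which background had been subtracted, so that negatives occur on all 52 arrays. The deposited detection values are a fraction, 1 minus the detection p, against negative controls. The authors' log2 values were quantile-normalized within liver and within thymic arrays separately (medians 7.97 and 7.80) and served as an alternative only. The scanner software is not given in the sources used here.

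Of 45281 probes, 34885 had 1 gene symbol in the platform annotation, 18 had several and 10378 were not listed; 99.78% of named probes matched a GRCm38.p6 gene, giving 19057 genes. Columns of 1 further array (2 columns) matched no sample and were not used. The 14 arrays were normalized together with neqc in limma 3.58.1 (R 4.3.3; offset 16), and probes detected on at least 5 arrays were kept (15838). Genes were read by the probe with the highest mean, and liver minus thymus was tested with lmFit and eBayes (trend, robust) at a Benjamini-Hochberg adjusted p under 0.05. "At least" folds set the brighter tissue's mean against the lowest detected signal of each dim array or the probe's own, whichever was higher. The script was tested on simulated data. Named genes are the 15 largest called differences each way, the 3 largest called of each list, the 8 most variable of each tissue, isozyme pairs, sex chromosome genes and fixed markers; others were named after their values were seen. Members and lists were chosen with earlier results of these data known. Alternatives covered scaling, offset, background, filters, probes, chip, replicate block and each array left out.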

Additional observations from a re-analysis of the deposited data

Results flagged for a closer look

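A sample is listed here when its gap to the nearest array of the same tissue was above the Dixon limit for that group size. Of 462 groups of values tested, over 229 genes and the array measures, 62 held such a sample. Chance flags about 1 in 20 groups. Healthy liver 5 accounted for 50 of the 62.

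Liver 5 stood below the other 8 livers for Acaa2 at 8.34, Ahsg at 12.94, Apoa2 at 15.19, Apob at 9.25, Arhgdib at 6.23, Asl at 7.32, Atp5pb at 5.91, B2m at 14.19, Calr at 7.58 and Car1 at 4.60. It was also lowest for Cdh5 at 4.97, Clec4g at 11.21, Cps1 at 10.38, Cyc1 at 9.46, Cyp2c70 at 12.89, Cyp2e1 at 13.90, Cyp3a11 at 8.19, Cyp51 at 5.14 and Emcn at 5.41. It was also lowest for Fbp1 at 10.83, Gnmt at 11.32, Hmgb2 at 4.94, Hnrnpk at 6.16, Hpx at 12.80, Idh1 at 8.61, Kif23 at 9.12, Ldha at 11.07 and Lyz2 at 4.87. It was also lowest for Oit3 at 4.53, Orm1 at 12.14, Pdia4 at 9.06, Pklr at 5.43, Serpina1c at 9.59, Serpina1d at 14.75, Sf3a3 at 9.90, Slc2a2 at 6.03 and Tuba1b at 10.57.

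Liver 5 stood above the other 8 livers for Actb at 15.26, Bcl11b at 7.16, Casp9 at 10.77, Cox8b at 6.93, F9 at 14.31, Foxa3 at 13.67, Hnf4a at 12.57, Nop58 at 10.82 and Rag1 at 5.68. It was also highest for Satb1 at 7.58, Sox4 at 7.21, Srebf2 at 9.54 and Srsf1 at 12.58.

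Healthy liver 3 stood apart for Hamp2, its lowest value, at 8.82. Healthy liver 6 stood apart for Ccl21a, its highest value, at 8.01 and Sgo2a, its highest value, at 4.95. Healthy liver 10 stood apart for H2-Eb1, its highest value, at 11.01 and Sash3, its highest value, at 6.49. Healthy thymus 1 stood apart for Hpd, its lowest value, at 4.40 and Top2a, its highest value, at 11.88. Healthy thymus 2 stood apart for Cd1d1, its highest value, at 9.33 and Cd27, its lowest value, at 13.53. Healthy thymus 3 stood apart for Aldoa, its lowest value, at 10.62 and Mpeg1, its highest value, at 7.01. Healthy thymus 4 stood apart for Cdca8, its highest value, at 12.30.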

How the results depend on the processing

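Across 34 alternatives and the 161 genes named by the rule, 5327 values kept their direction and their side of the threshold, 60 lost the call, 18 gained one and 13 changed sign. Median scaling gave 2041 genes higher in liver and 508 at least 16-fold higher in thymus, and 24.7% of its calls were toward liver, against 40.9%. The count at least 16-fold higher in thymus was 204 with no further background correction, 188 with an offset of 50 and 53 with the authors' log2 values, with which 155 were at least 16-fold higher in liver. With 1 array left out, 3000 to 3579 genes were higher in liver and 3670 to 5057 in thymus, 478 to 520 and 234 to 349 were at least 16-fold higher, the difference in probes detected was -5.75 to -4.97 percentage points, and that in the share of the 50 brightest genes was 3.74 to 4.32. Leaving out a thymus lowers the number of genes kept by the detection filter, and on the same genes 7520 to 7584 calls were made. Livers of 1 chip only gave 2968 and 4549 calls, and no filter on dim probes 3750 and 5336. Liver 1 put back gave 2940 and 4316.

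Among genes named in the text, median scaling removed calls toward liver of Csf1r, Tspan33, Casp9, Hnrnpk, Id2, Ms4a1, Sdhb, Cyc1, Cox6c, Atp5pb and Cd1d1. Livers 2 to 5 only removed those of Cyp51, Cyc1, Hnrnpk, Id2, Atp5pb, Cd1d1, A1bg and Xist. That subset also removed the calls toward thymus of Myl4, Nppa and Tcap. Median scaling added calls toward thymus of Adgre1, Cldn5, Emcn, Arntl, Cidea, Esrra, Gapdh, Grap2, Hprt, Lig4, Nhej1, Per1, Slc2a1, Tnnc1, Uty and Eif2s3y. Livers 2 to 5 only added those of Adgre1 and Arntl.

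Sign changes touched 5 genes. Cd69 ranged from -6.20 to 0.22 with 1 array left out, because without a thymus its dimmer probe was the one kept. Idh2 was -0.37 after median scaling, and Slc2a1 was 0.14 with liver 1 put back. Eif2s3y was 0.21 and Xist -0.02 with livers 2 to 5 only, by the construction of that subset. Titles in both tissues carry the numbers 2 to 5, but same-numbered samples did not deviate together (correlations -0.051, -0.171, -0.048 and -0.262). Different tissues of 1 animal need not deviate together, so this cannot decide whether a shared number means a shared animal. With a replicate block, 5986 genes were called, against 6515 on the same arrays without it. Eif2s3y was 0.18 and Xist -0.01 with the replicate block and also without it on those arrays. The number of arrays limits the precision, and levels below about 5.57 in liver and 5.29 in thymus were not above background. The fits with livers 2 to 5 only, without the block on the same arrays and on the same genes without each thymus were chosen after seeing the data.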
